A study of Mus musculus with 8 samples.

Results

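Messenger RNA of tumour necrosis factor (Tnf), of its receptors and of genes that the transcription factor NF-kB induces to restrain itself was measured in colonic biopsies of 8 chimeric mice. The genes described are 10 of the 26008 listed, taken by name from the table: the ligands Tnf, Lta, Tnfsf10 and Tnfsf13b, the receptors Tnfrsf1a and Tnfrsf1b, and the NF-kB-responsive genes Nfkbia, Tnfaip3, Birc3 and Tnfaip2. They were chosen by the genotype difference of Tnf in these same libraries, so the genotype differences of the members are given as descriptions without a test. All 10 had a mean of at least 10 normalized counts (reads scaled by the size factor of their library) and are among the 19127 genes tested.

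The recipients were male wild-type C57BL/6JRj mice, lethally irradiated (1100 rad) when 7 weeks old and engrafted with bone marrow of donors 9 to 11 weeks old. The donors were penk-/- mice of the B6.129-Penk-rstm1Pig/J strain, which lack the precursor of enkephalins, or penk+/+ mice. The colons were taken 18 to 21 weeks after engraftment, from 4 mice per donor genotype, with 1 library per mouse. In both groups only blood-forming cells and their progeny came from the donor, and the epithelium, muscle, vessels and neurons of the colon were wild-type. Penk is also expressed outside the blood lineages, by enteric neurons among others. It had 453 to 616 normalized counts in penk-/- chimeras and 473 to 636 in penk+/+ chimeras, so in whole tissue its level did not check the donor genotype. The comparison asks whether the colon differs at steady state between mice whose blood-forming cells came from penk-/- and from penk+/+ donors. In a biopsy, fewer cells of a type and less RNA per cell cannot be told apart.

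TNF is made as a membrane protein, mainly by macrophages and lymphocytes, and is shed as a soluble cytokine. TNF receptor 1 (Tnfrsf1a) is present on most cells, while TNF receptor 2 (Tnfrsf1b) is found mostly on immune and endothelial cells. Engaged receptor 1 assembles a complex with ubiquitin ligases, among them cIAP2 (Birc3), which leads to degradation of IkBα (Nfkbia) and frees NF-kB to enter the nucleus. NF-kB then induces its own brakes, including Nfkbia and the ubiquitin-editing enzyme A20 (Tnfaip3). In the gut this circuit takes part in defence, in survival of the epithelium and in colitis.

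The recovered reads ranged from 33.12 M to 50.68 M per library. Pbsn, a gene of the male accessory glands, reached 105658 normalized counts in penk-/- replicate 3 and 111024 in penk+/+ replicate 4, against 0 to 13425 in the other libraries. Markers of B cells and lymphoid follicles summed to 2384 normalized counts in penk-/- replicate 4 and 2304 in penk+/+ replicate 2, against 387 to 976 in the others. Results for the members are therefore also given without either pair of libraries. Of the 10 members, Tnfrsf1a overlaps a gene with many reads, Plekhg6 on the opposite strand (mean 1309), and the strand setting used in counting is not given in the sources used here.

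Tnf itself was scarce. It was covered by 21 to 212 reads per library. Its normalized counts were 79.8, 24.0, 65.4 and 54.1 in penk-/- replicates 1 to 4 and 152, 202, 82.8 and 90.9 in penk+/+ replicates 1 to 4. The groups did not overlap, although the highest penk-/- library (79.8) lay just under the lowest penk+/+ library (82.8). The means were 55.8 ± 23.7 and 132 ± 55.8 (SD, n = 4 each), a log2 difference of -1.25 (SE 0.40, 95% interval -2.15 to -0.35) on the log2(value + 1) scale of limma. Penk-/- replicate 2 was the lowest library and penk+/+ replicate 2 the highest, and the values spanned 8.39-fold over the 8 libraries. The log2 difference was -1.51 without the libraries rich in Pbsn and -1.04 without those rich in follicle markers.

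Across all 19127 genes tested, limma called 0% at an adjusted p below 0.05 (0 genes, and 6 without penk-/- replicate 1). At an unadjusted p below 0.05, 1842 genes were found, 5.33% of all genes as lower and 4.30% as higher in penk-/- chimeras. With 7 libraries and recovered reads, edgeR called 5 genes and DESeq2 360. The groups did not overlap, with penk-/- lower, for 2.74% of all genes, and with penk-/- higher for 2.89%. Among the members this was so for 3 of 10 (Tnf, Nfkbia and Birc3), all lower in penk-/- chimeras, and for 0 of 10 in the other direction. Since Tnf was chosen on this contrast, nothing is read from that count. With 3 libraries a group the shares over all genes were higher. Without the libraries rich in Pbsn the groups did not overlap for 3 of 10 members with penk-/- lower (7.57% of all genes) and 0 of 10 with penk-/- higher (7.73%). Without those rich in follicle markers this was again so for 3 of 10 (5.12%) and 0 of 10 (5.40%).

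**Figure D1:**
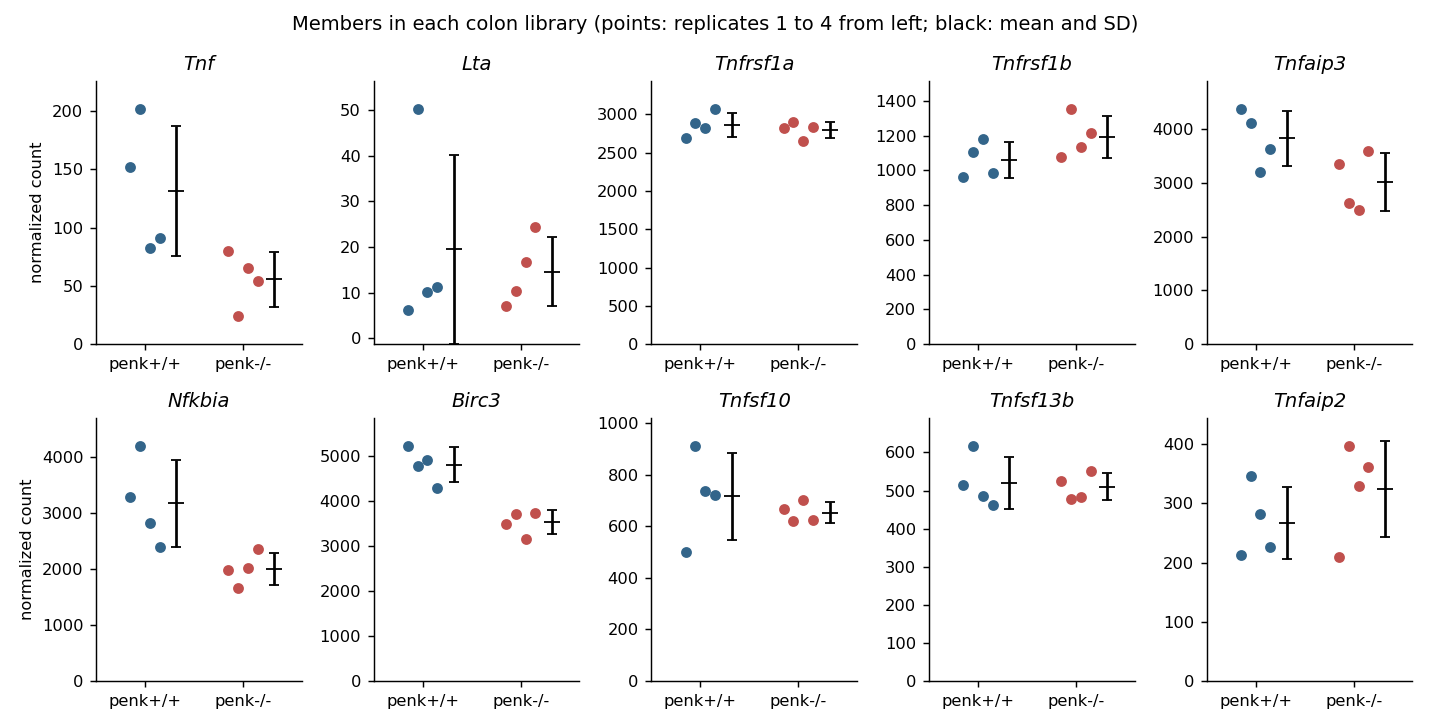
Normalized count of the 10 members in each library (y axis, linear scale) by donor genotype (x axis), with points for replicates 1 to 4 from left to right and the mean and SD in black. The penk-/- points lie below the penk+/+ points for Tnf, Nfkbia and Birc3, and the groups overlap for the other 7 members.

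For each of the other ligands the groups overlapped. Lta encodes lymphotoxin-α, a ligand of the same receptors that lymphocytes make, and lies next to Tnf on chromosome 17. In GRCm39 Ltb (35413382 to 35415296, plus strand), Tnf (35418357 to 35420983, minus strand) and Lta (35422141 to 35424327, minus strand) stand in a row, with 1157 bases between Tnf and Lta. Lta had 7.07, 10.3, 16.7 and 24.3 normalized counts in penk-/- replicates 1 to 4 and 6.22, 50.4, 10.2 and 11.1 in penk+/+ replicates 1 to 4. The groups overlapped fully, and penk+/+ replicate 2, a library rich in follicle markers, stood alone at the top. The log2 difference of -0.08 (SE 0.60) became 0.52 without that library. With 5 to 53 reads per library, Lta is the least well measured member.

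Tnfsf10 encodes TRAIL, a ligand that can trigger death of cells bearing its receptor. It had 668, 620, 703 and 624 normalized counts in penk-/- replicates 1 to 4 and 500, 913, 738 and 721 in penk+/+ replicates 1 to 4, so that the lowest and the highest library were both penk+/+. Tnfsf13b encodes BAFF, a survival factor of B cells, and was level throughout, with 479 to 552 normalized counts in penk-/- and 463 to 617 in penk+/+ chimeras. The log2 differences were -0.10 (SE 0.16) for Tnfsf10 and -0.02 (SE 0.10) for Tnfsf13b.

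The receptor that is present on most cells was the steadiest member. Tnfrsf1a had 2818, 2900, 2652 and 2833 normalized counts in penk-/- replicates 1 to 4 and 2696, 2883, 2817 and 3067 in penk+/+ replicates 1 to 4. Its coefficient of variation was 3.76% and 5.41%, and the log2 difference was -0.03 (95% interval -0.16 to 0.10). Tnfrsf1b had 1074, 1352, 1136 and 1213 in penk-/- replicates 1 to 4 and 961, 1107, 1180 and 983 in penk+/+ replicates 1 to 4. Its mean was higher in penk-/- chimeras, opposite in sign to Tnf, with a log2 difference of 0.17 (95% interval -0.04 to 0.39) and groups that overlapped.

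Of the 4 NF-kB-responsive members, Nfkbia, Tnfaip3 and Birc3 had lower means in penk-/- chimeras and Tnfaip2 a higher one. Nfkbia encodes the inhibitor that holds NF-kB in the cytoplasm and is among the first genes NF-kB induces. It had 1969, 1652, 2006 and 2357 normalized counts in penk-/- replicates 1 to 4 and 3271, 4189, 2810 and 2394 in penk+/+ replicates 1 to 4. The library with the least Tnf had the least Nfkbia, and the library with the most Tnf had the most. The log2 difference was -0.65 (SE 0.17), with only 2357 against 2394 counts where the groups came closest.

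Birc3 encodes an inhibitor of apoptosis that ubiquitinates proteins of the receptor complex. It had 3506, 3729, 3164 and 3735 normalized counts in penk-/- replicates 1 to 4 and 5235, 4790, 4924 and 4297 in penk+/+ replicates 1 to 4. Its groups lay farther apart in relation to their spread than those of any other member, with a log2 difference of -0.44 (SE 0.08) and coefficients of variation of 7.59% and 8.11%. Tnfaip3 encodes A20, which removes and edits the ubiquitin chains of the receptor complex. It had 3354, 2619, 2500 and 3595 in penk-/- replicates 1 to 4 and 4372, 4113, 3213 and 3637 in penk+/+ replicates 1 to 4, and the groups overlapped between 3213 and 3595. The log2 difference was -0.35 (SE 0.14). Tnfaip2, a TNF-inducible gene of endothelial and myeloid cells, ranged from 210 to 397 in penk-/- and from 213 to 346 in penk+/+ chimeras, a log2 difference of 0.27 (SE 0.22).

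**Figure D2:**
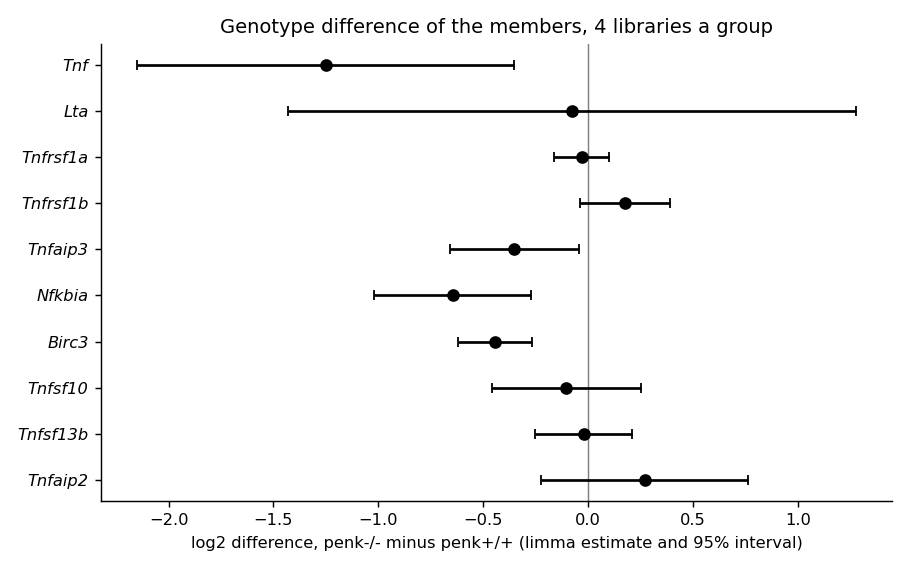
Log2 difference between penk-/- and penk+/+ chimeras of each member (x axis, points) with the 95% interval from limma (bars), 4 libraries a group. The intervals of Tnf, Tnfaip3, Nfkbia and Birc3 lie below 0 and those of the other 6 members include it, and as Tnf was chosen on this contrast the intervals are a description.

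Levels can be set side by side only per length, here as normalized counts per kilobase of annotated exon, averaged over the 8 libraries. On that scale Nfkbia led with 1332, followed by Tnfrsf1a with 900, Birc3 with 481, Tnfaip3 with 353, Tnfrsf1b with 227 and Tnfsf10 with 127. Tnfsf13b (75.0), Tnfaip2 (58.7) and Tnf (57.2) formed the lower end with Lta last at 10.6. The ranges over the libraries of neighbours in this order overlapped for Nfkbia and Tnfrsf1a, for Birc3 and Tnfaip3, for Tnfaip3 and Tnfrsf1b, and along the last 4. The first 6 places and the last were the same in both genotypes. Tnf stood 9th of the 10 in penk-/- chimeras (34.1 per kilobase), below Tnfsf13b (74.2) and Tnfaip2 (64.5), and 7th in penk+/+ chimeras (80.4), above Tnfsf13b (75.7) and Tnfaip2 (53.0).

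To examine whether the other members followed Tnf from mouse to mouse, Pearson's r was computed on log2(value + 1) over the 8 libraries, with an exact permutation test over all 40320 pairings. The same was done for each of the other 19126 genes tested. At an unadjusted p below 0.05, 2.85% of all genes were positively and 3.17% negatively related to Tnf, which is the level that the members have to be read against. After adjustment over all genes, 0% passed (546 and 607 genes passed unadjusted, in the positive and negative direction), and the smallest adjusted p of any gene was 0.689. With 40320 pairings the exact p cannot be small enough for any gene to pass this adjustment on its own. The adjusted p therefore decides little. Over all 8 libraries r includes the genotype contrast on which Tnf was chosen, so its p-values and counts are given as descriptions. Because Tnf differed between the genotypes, r was also computed after each value was centred on the mean of its genotype. This second measure does not use the genotype contrast. It has 576 possible orders within genotypes, and 1.54% of all genes were positively and 1.32% negatively related to Tnf by its unadjusted exact p. With so few orders, its adjusted p decides even less.

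Nfkbia followed Tnf most closely of the members, with r = 0.89 (exact permutation p = 0.0033, adjusted p = 0.785) and Spearman's rho = 0.88 (exact permutation p = 0.00724). Its r was higher than that of 99.9% of all genes. It was 0.75 within genotypes (exact permutation p = 0.0486, adjusted p = 1) and 0.71 without the 2 libraries farthest from the median of Tnf, replicate 2 of either genotype (exact permutation p = 0.114). Tnfaip3 had r = 0.78 (exact permutation p = 0.0194, adjusted p = 0.796) and rho = 0.76 (exact permutation p = 0.0368). Within genotypes its r was 0.58 (exact permutation p = 0.181), and without the 2 farthest libraries it was 0.65 (exact permutation p = 0.144). The relations of both genes kept their sign when any 1 library was left out, with r from 0.83 to 0.94 for Nfkbia and from 0.70 to 0.90 for Tnfaip3. Without the libraries rich in Pbsn, r was 0.91 for Nfkbia and 0.90 for Tnfaip3, and without those rich in follicle markers it was 0.86 and 0.81.

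For Birc3 the 2 measures parted. Its r was 0.63 (exact permutation p = 0.0879, adjusted p = 0.823) and its rho 0.69 (exact permutation p = 0.0694), but within genotypes r was -0.12 (exact permutation p = 0.780). Among mice of the same genotype the level of Birc3 therefore showed no rise with Tnf. Whether r differs between Birc3 and Nfkbia was not tested. Tnfaip2 was not positively related to Tnf (r = -0.48, exact permutation p = 0.235, rho = -0.50, exact permutation p = 0.216), and r was -0.78 without the 2 farthest libraries (exact permutation p = 0.0431).

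The receptors did not rise with Tnf. Tnfrsf1b had r = -0.76 (exact permutation p = 0.0291, adjusted p = 0.816) and rho = -0.76 (exact permutation p = 0.0368). It was highest (1352) in penk-/- replicate 2, the library with the least Tnf, and lowest (961) in penk+/+ replicate 1, the library with the second highest Tnf. Its r was -0.61 within genotypes (exact permutation p = 0.151) and -0.84 without the 2 farthest libraries (exact permutation p = 0.0194). Tnfrsf1a had r = -0.10 (exact permutation p = 0.822) and rho = -0.02 (exact permutation p = 0.977), and the sign of r changed with the library left out.

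Of the ligands, Tnfsf13b had r = 0.53 (exact permutation p = 0.178), Tnfsf10 r = 0.29 (exact permutation p = 0.502) and Lta r = 0.25 (exact permutation p = 0.533). Their rho values were 0.29, 0.45 and -0.05 (exact permutation p = 0.501, 0.267 and 0.935). Without the 2 farthest libraries r was -0.22 for Tnfsf13b, -0.60 for Tnfsf10 and -0.84 for Lta (exact permutation p = 0.681, 0.237 and 0.0306). Without penk+/+ replicate 2 alone, a library rich in follicle markers, r was 0.13, -0.22 and -0.41 in the same order. Leaving out only penk-/- replicate 2 gave 0.48, 0.20 and 0.20. Within genotypes r was 0.68 for Tnfsf13b, larger than that of Tnfaip3, 0.18 for Tnfsf10 and 0.32 for Lta (exact permutation p = 0.0573, 0.753 and 0.464). Without penk+/+ replicate 1, r of Tnfsf10 was 0.89. In all, 2 of the 9 other members were positively related to Tnf at an unadjusted p below 0.05 (Nfkbia and Tnfaip3) and 1 negatively (Tnfrsf1b). The shares of all genes were 2.85% and 3.17%. Within genotypes only Nfkbia of the 9 had an exact permutation p below 0.05 (0.0486, against 0.181 for Tnfaip3 and 0.151 for Tnfrsf1b). There the shares of all genes were 1.54% positively and 1.32% negatively. Without the libraries rich in Pbsn the counts of members were 2 and 0, against 651 and 569 of all 19126 genes. Without those rich in follicle markers they were 1 and 2, against 543 and 762. Of the 9 members, Nfkbia had the smallest adjusted exact permutation p (0.785).

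**Figure D3:**
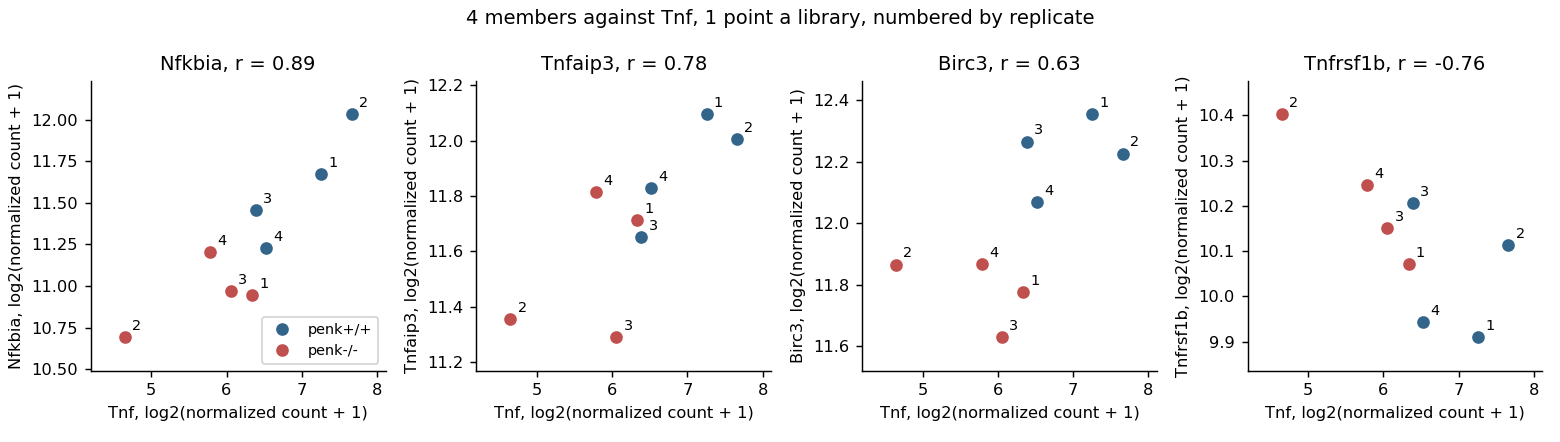
Nfkbia, Tnfaip3, Birc3 and Tnfrsf1b (y axes) against Tnf (x axes), all as log2(normalized count + 1), with 1 point per library numbered by replicate and coloured by genotype. Points climb with Tnf for Nfkbia (r = 0.89) and Tnfaip3 (0.78), fall for Tnfrsf1b (-0.76), and for Birc3 form 1 level per genotype (r = 0.63 over all, -0.12 within genotypes).

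**Figure D4:**
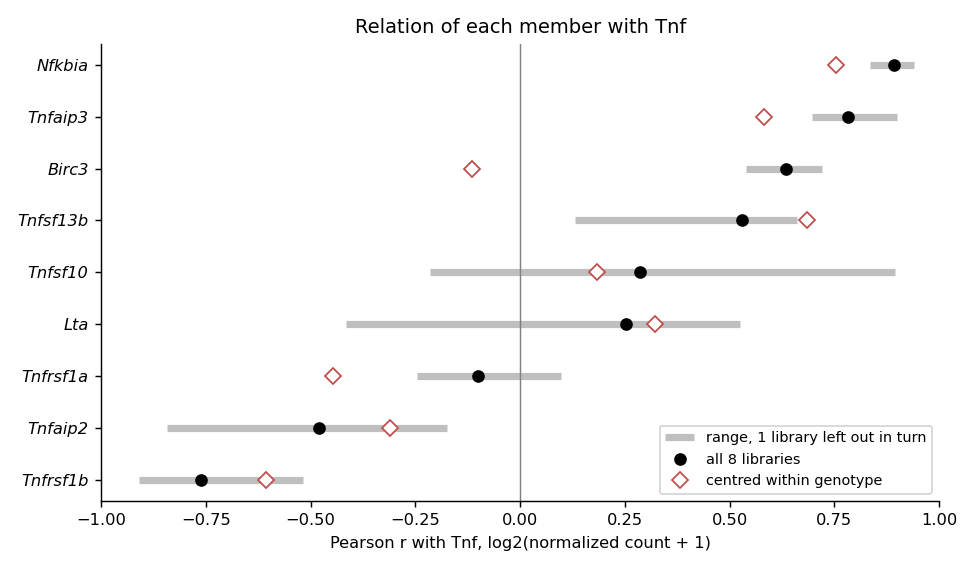
Pearson r with Tnf (x axis) of the 9 other members over all 8 libraries (black points), centred within genotype (open diamonds), and over the range obtained when each library was left out in turn (grey bars). The bars of Nfkbia, Tnfaip3, Birc3 and Tnfsf13b stay above 0, those of Tnfrsf1b and Tnfaip2 below it, and those of Tnfsf10, Lta and Tnfrsf1a cross it.

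The sequences just before the start of transcription are shown for Tnf and for the 2 members that were positively related to it. They were taken from RefSeq promoters, each found once in GRCm39 by an exact match. All 10 members had a promoter in that collection, with 12 promoters in all. Each was searched on both strands, from 250 bases before to 50 bases after the start, for the NF-kB consensus of 10 bases. The consensus was present in 4.51% of all 32851 promoters, and at least 2 matches in 0.554%. Among the members it was present in 1 promoter of Nfkbia and 1 of the 2 promoters of Tnfaip3, and in no promoter of the other 8 members, where these letters are simply not in the window. Bases of a match are in capitals, and each sequence reads 5′ to 3′ on the strand of its gene over the 250 bases before the start.
Nfkbia, chr12:55539433-55539682, minus strand: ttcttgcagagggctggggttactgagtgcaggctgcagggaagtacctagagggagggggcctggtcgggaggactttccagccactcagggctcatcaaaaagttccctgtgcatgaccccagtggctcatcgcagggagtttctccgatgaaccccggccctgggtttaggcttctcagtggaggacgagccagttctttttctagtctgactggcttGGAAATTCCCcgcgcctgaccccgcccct
Tnfaip3, chr10:18891159-18891408, minus strand: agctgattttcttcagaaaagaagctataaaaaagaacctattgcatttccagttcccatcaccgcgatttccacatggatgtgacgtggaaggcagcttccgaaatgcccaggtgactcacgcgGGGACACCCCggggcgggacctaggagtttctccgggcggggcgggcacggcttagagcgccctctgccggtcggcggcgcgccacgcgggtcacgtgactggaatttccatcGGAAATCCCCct
Tnf, chr17:35420984-35421233, minus strand: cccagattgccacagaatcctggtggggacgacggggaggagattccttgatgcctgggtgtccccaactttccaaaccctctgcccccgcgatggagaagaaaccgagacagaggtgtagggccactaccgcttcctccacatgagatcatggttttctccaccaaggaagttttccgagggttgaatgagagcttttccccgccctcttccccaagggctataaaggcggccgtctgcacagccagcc
The match of Nfkbia lies on the opposite strand, with its first printed base 29 bases before the start. Tnfaip3 has a match 125 bases before the start on its own strand and another 12 bases before it on the opposite strand. A match describes the letters only, and binding was not measured.

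The wider circuit was read from lists of genes named as inhibitors, subunits and targets of NF-kB. The lists were fixed with earlier results of these data known, so their counts are given as descriptions. Of 12 further inhibitors and feedback genes, 3 were positively related to Tnf at an unadjusted p below 0.05 and 0 negatively, with a median r of 0.33 against -0.02 for all genes tested. The 3 were Zc3h12a, which encodes an RNase that degrades cytokine messages (r = 0.82, rho = 0.86, exact permutation p = 0.011 and 0.0107), Cyld, a deubiquitinase (r = 0.79, rho = 0.83, exact permutation p = 0.0169 and 0.0154), and Tnip3, a partner of A20 (r = 0.74, rho = 0.76, exact permutation p = 0.027 and 0.0368). Within genotypes the median r of the list was 0.21, and r was 0.58 for Zc3h12a, 0.43 for Cyld and 0.48 for Tnip3 (exact permutation p = 0.198, 0.330 and 0.260). Over all genes and libraries, 2.85% were positively and 3.17% negatively related to Tnf. Without the libraries rich in Pbsn the counts of the list were 3 and 0, against 651 and 569 of all 19126 genes. Without those rich in follicle markers they were 2 and 1, against 543 and 762. For the genotype contrast, 5 of the 12 had an unadjusted p below 0.05, all lower in penk-/- chimeras (against 5.33% of all genes as lower), and the smallest adjusted p with limma was 0.339. Tnip3 had the most negative log2 difference of the list (-0.50, SE 0.18, adjusted p = 0.444) and Nfkbid, a nuclear IkB protein, the most positive (0.19, SE 0.11, adjusted p = 0.646).

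Of 23 subunits, kinases and adaptors, 3 were positively related to Tnf and 0 negatively (median r 0.29): Relb, a subunit of the non-canonical pathway (r = 0.81, rho = 0.86, exact permutation p = 0.0126 and 0.0107), Nfkb1, the gene of the p50 precursor (r = 0.71, rho = 0.88, exact permutation p = 0.0453 and 0.00724), and Ikbkb, the kinase that marks IkBα for degradation (r = 0.73, rho = 0.79, exact permutation p = 0.0332 and 0.0279). Ikbkb differed by a log2 of only -0.03 between the genotypes, and its r within them was 0.79 (exact permutation p = 0.0191, adjusted p = 1). Within genotypes r was 0.55 for Relb and 0.30 for Nfkb1 (exact permutation p = 0.208 and 0.493). Relb had 1929, 1703, 1595 and 2009 normalized counts in penk-/- replicates 1 to 4 and 2640, 2537, 2049 and 2295 in penk+/+ replicates 1 to 4. These groups did not overlap (log2 difference -0.39, SE 0.10, limma adjusted p = 0.339). Traf5, an adaptor, had the most positive log2 difference of the list (0.23, SE 0.19, adjusted p = 0.752). In all, 1 gene was lower and 1 higher at an unadjusted p below 0.05, against 5.33% and 4.30% of all genes. Without the libraries rich in Pbsn, 1 of the 23 was positively related to Tnf, against 651 of all 19126 genes. Without those rich in follicle markers 0 were, against 543. In either case 0 were negatively related, against 569 and 762. With all 8 libraries the shares of all genes were 2.85% positively and 3.17% negatively.

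The targets of NF-kB were divided. Of 28 listed, 24 could be tested, since Csf2 is not analysed here and Sele, Cxcl2 and Il6 were below the minimum. The median r of these 24 was 0.15 over all libraries but -0.16 within genotypes. Of the 24, 2 were positively related to Tnf and 1 negatively at an unadjusted p below 0.05 (2.85% and 3.17% of all genes). The 2 were the chemokine genes Cxcl1 (r = 0.82, rho = 0.83, exact permutation p = 0.00905 and 0.0154) and Ccl20 (r = 0.78, rho = 0.76, exact permutation p = 0.0281 and 0.0368). Ccl20, which epithelium makes to attract lymphocytes and dendritic cells, had 199, 160, 172 and 298 normalized counts in penk-/- replicates 1 to 4 and 356, 840, 377 and 228 in penk+/+ replicates 1 to 4, highest in the library with the most Tnf. Its log2 difference, -0.99 (SE 0.36, adjusted p = 0.449), was the most negative of the list. Ccl2, which attracts monocytes, ran the other way, with 56.5 to 109 normalized counts in penk-/- and 34.8 to 79.7 in penk+/+ chimeras, highest in the library with the least Tnf. Its r was -0.79 and its rho -0.79 (exact permutation p = 0.023 and 0.0279), and its log2 difference was 0.56 (SE 0.29, adjusted p = 0.582). Within genotypes r was 0.62 for Cxcl1, 0.56 for Ccl20 and -0.66 for Ccl2 (exact permutation p = 0.158, 0.163 and 0.109). For the genotype contrast, 4 of the 24 had an unadjusted p below 0.05, all lower in penk-/- chimeras, against 5.33% of all genes as lower. As the list was fixed with earlier results of these data known, nothing is read from that count.

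The list genes with the smallest and largest log2 difference were also searched for the consensus, and those with a match wholly before the start are shown with 10 bases on either side. Over the 8 libraries, Tnip3, Ccl20 and the receptor gene Tnfrsf8 were positively related to Tnf. Nfkbid, with 2 matches of which the second is shown, had r = -0.09 (exact permutation p = 0.822). All were picked by their genotype difference, which r over all libraries includes. Within genotypes r was 0.75 for Nfkbid, 0.48 for Tnip3, 0.56 for Ccl20 and 0.44 for Tnfrsf8 (exact permutation p = 0.0538, 0.260, 0.163 and 0.293).
Tnip3: gagacatcctGGGAAATCCCagttacatgg
Ccl20: aatcaatgggGGAAAACCCCgggtgagaac
Nfkbid: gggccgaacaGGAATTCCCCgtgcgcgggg
Tnfrsf8: tcaaaacgcaGGGGAGCCCCctgcgtgcgt
The consensus was present for 6 of the 10 inhibitors with a promoter in the collection, 10 of 21 targets and 4 of 17 subunits, against 5.14% of all genes with a promoter. In the remaining lists it was present for 1 of 9 other ligands, 2 of 20 other receptors, 0 of 5 genes of death signalling and 0 of 5 that control the Tnf message or its shedding. Among tested genes with a promoter, the median r with Tnf was -0.02 for the 804 with the consensus and -0.03 for the 11907 without. As these are fewer than 80% of the genes tested, that comparison is void as a check.

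In the death arm of receptor 1, 0 of 7 genes were related to Tnf in either direction by the unadjusted p (median r 0.08). The shares of all genes were 2.85% positively and 3.17% negatively, so 0 of 7 says little. Among 8 genes that control the Tnf message or its shedding, Zc3h12a was the only one positively related to Tnf, and the median r was -0.22. Zfp36, which encodes tristetraprolin and destabilizes the Tnf message, had the most negative log2 difference (-0.69, SE 0.26, adjusted p = 0.453) but r = 0.20 with Tnf. Its highest penk-/- library was replicate 2 (5303 normalized counts), where Tnf was lowest. Rhbdf1, a partner of the shedding protease Adam17, had the most positive (0.31, SE 0.09, adjusted p = 0.386).

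Other members of the ligand and receptor families showed no common direction. Of 14 other ligands, 8 could be tested, and 0 of 8 were related to Tnf in either direction (median r 0.04). Their log2 differences ran from -0.35 (SE 0.25, adjusted p = 0.696) for Tnfsf15 to 0.53 (SE 0.48, adjusted p = 0.764) for Tnfsf11. Of 23 other receptors, 22 could be tested, and 1 was positively and 1 negatively related to Tnf (median r -0.14). Over all genes 2.85% were positively and 3.17% negatively related. Tnfrsf8, which encodes CD30 of activated lymphocytes, had r = 0.72 and rho = 0.83 (exact permutation p = 0.0389 and 0.0154), and Tnfrsf12a, the receptor of TWEAK, r = -0.75 and rho = -0.79 (exact permutation p = 0.0312 and 0.0279). Within genotypes r was 0.44 and -0.45 (exact permutation p = 0.293 and 0.306). They also held the most negative (-0.40, SE 0.18, adjusted p = 0.521) and most positive (0.53, SE 0.17, adjusted p = 0.400) log2 differences of that list.

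By the unadjusted p, 2.85% of all genes were positively and 3.17% negatively related to Tnf. This was so for 1 of 8 T cell markers (positively) and 1 of 6 smooth muscle markers (negatively), and in either direction for 0 of 12 macrophage and monocyte, 0 of 6 epithelium, 0 of 5 endothelium, 0 of 8 B cell and follicle, 0 of 4 mast cell and 0 of 2 neutrophil markers tested. Of 12 macrophage and monocyte markers, 11 had a negative r with Tnf (median -0.44). Their summed level was 14767 to 20012 normalized counts in penk-/- and 11915 to 18634 in penk+/+ chimeras, and the median log2 difference was 0.26. Of 6 epithelium markers, 5 had a positive r (median 0.50), with sums of 252455 to 350065 in penk-/- and 322131 to 381366 in penk+/+ chimeras and a median log2 difference of -0.19. All 6 smooth muscle markers had a negative r (median -0.52), with sums of 142687 to 244816 and 150823 to 234970. All 5 endothelium markers had a negative r (median -0.32), with sums of 3828 to 5501 and 3314 to 5342. T cell markers were few, with 210 to 322 and 215 to 425 normalized counts in all and a median r of 0.28. B cell and follicle markers had a median r of 0.00. Within genotypes the median r was 0.18 for epithelium, -0.26 for macrophage and monocyte, -0.61 for smooth muscle and -0.21 for endothelium markers. It was 0.12 for T cell markers, 0.10 for B cell and follicle markers and -0.02 for all genes. Of the neutrophil markers S100a8, S100a9 and Mmp8 were below the minimum, and Cxcr2 is not analysed here. Mast cell markers summed to 218 to 427 and 370 to 617 normalized counts, but only Cma1, named after its values were seen, had a lower mean log2 level in penk-/- chimeras (-0.72). The other 3 of the 4 tested had higher ones, and the median log2 difference was 0.51. No marker found in the table was at 0 in all libraries. Without the libraries rich in Pbsn, median r was 0.75 for epithelium (1 positive), -0.43 for macrophage, -0.52 for smooth muscle and -0.30 for endothelium. Without those rich in follicle markers these medians were 0.56, -0.71 (2 negative), -0.66 (2 negative) and -0.77 (1 negative). Over all genes, 651 and 569 of 19126 were positively and negatively related in the first setting, 543 and 762 in the second. The part of the cell makeup of the biopsies in the results for Tnf and its followers was not tested.

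By pattern alone, the 5 genes most like Tnf over the 8 libraries were Ier5 (r = 0.95), an immediate early gene, Appbp2os (r = 0.94), a noncoding RNA, and Chchd7 (r = 0.94), Ndufaf8 (r = 0.93) and Chchd2 (r = 0.93), genes of mitochondrial proteins. Their rho values were 0.98, 0.90, 0.88, 0.90 and 0.88. The adjusted exact permutation p ranged from 0.689 to 0.785. None of the 5 is in the lists. Chchd7 (3938857 to 3951046) lies near Penk (4132722 to 4141856), the gene deleted in the penk-/- donors, on chromosome 4. The part of donor DNA around the deleted gene in its values was not tested. Ier5 had 1504, 1170, 1356 and 1350 normalized counts in penk-/- replicates 1 to 4 and 1675, 1832, 1541 and 1691 in penk+/+ replicates 1 to 4, and its r within genotypes was 0.91 (exact permutation p adjusted over all genes = 1). All 5 genes were lowest in penk-/- replicate 2 and highest in penk+/+ replicate 2, as Tnf was. They were picked for a high r with Tnf, so this likeness is no further result.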

How the data were processed

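Colon tissue of 4 penk-/- and 4 penk+/+ chimeras was profiled by bulk RNA-seq, with 1 stranded, paired-end poly-A library per mouse. The authors used FastQC for read quality, STAR 2.7.8a with GRCm39 (Ensembl 107 annotation) for alignment and quantification, and DESeq2 1.30.0. The values the authors deposited are a normalized signal, that is, reads scaled by the size factor of their library, and are neither raw nor logarithmic. All values (100%) were whole multiples of a step per library (tolerance 0.001), which gave 33.12 M to 50.68 M recovered reads per library. Of 26008 identifiers, 25776 were matched to names in GENCODE M39 (GRCm39). All columns of per-sample values were used, and no library was left out.

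The genotype fit used limma 3.58.1 (R 4.3.3, trend, two-sided, Benjamini-Hochberg adjustment), run on log2(value + 1) for the 19127 genes with a mean of at least 10. Standard errors and intervals come from that fit. Relations with Tnf were tested by exact permutation over pairings for every gene, and adjusted over all of them. Mice of a group are separate animals. The 10 members and the gene lists were chosen with earlier results of these data known. Genes named are the members, the smallest and largest log2 difference of each list, the 5 genes most like Tnf, Penk and Pbsn (those of the death signalling list are not reported here); Zc3h12a, Cyld, Nfkb1, Ikbkb and Cxcl1 were named after their values were seen, as the list genes related to Tnf. The consensus was searched in RefSeq promoters (GRCm38.p6 table, placed on GRCm39 by sequence). Exon lengths are unions of GENCODE exons. Alternatives were pseudocounts (0.1, 8), the filter (none, 50), quantile normalization, no trend, the replicate number as a block, rank and centred correlation, and each library left out. Added after seeing the data were the fits without the libraries rich in Pbsn or in follicle markers, and edgeR 4.0.16 and DESeq2 1.42.0 on the recovered reads of 7 libraries. The scripts were tested on simulated data. Other steps used Python 3.11.15 with scipy 1.17.1, numpy 2.4.6, matplotlib 3.10.9 and pandas 2.3.3.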

Additional observations from a re-analysis of the deposited data

Results flagged for a closer look

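In penk+/+ replicate 2, Lta stood far above the other 3 penk+/+ libraries (50.4 against 6.22 to 11.1 normalized counts), with a gap of 0.889 of the range of the group, past Dixon's 95% limit for 4 samples. Of 20 groups examined (10 members in 2 genotypes) it was the only such value, and chance flags about 1 in 20 groups. The same library is rich in markers of B cells and follicles (2304 normalized counts in all); their part in the value was not tested.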

How the results depend on the processing

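The count of genes called by genotype was 0 with limma at a pseudocount of 0.1 or 8, with no filter, with a mean of at least 50 and without trend, and was 1 with quantile normalization, 1 with the replicate block, 5 with edgeR and 360 with DESeq2 on 7 libraries. It was 0 to 6 when each library was left out, with 6 without penk-/- replicate 1, which the 7-library tests also lack. Why the tools differ was not tested. The planned count tests on all 8 libraries were not run, since the step of penk-/- replicate 1 is too near 1 for the rule by which reads were accepted as recovered. The replicate numbers mark different mice. Deviations of same-numbered libraries correlated at 0.15, -0.04, -0.32 and -0.16. With the replicate number as a block, 2938 genes had an unadjusted limma p below 0.05, against 1842 without it. The sample titles do not say whether same-numbered mice shared a cage or batch, and these values cannot decide it. The log2 difference of Tnf ranged from -1.46 to -0.90 with each library left out and from -1.51 to -1.04 under the other alternatives. The differences of all members moved by less than the spread between replicates in all 160 alternatives, though those of Lta, Tnfrsf1a, Tnfsf10 and Tnfsf13b, all near 0, changed sign in some. The relation with Tnf changed sign for Lta by rank (-0.048), without the 2 libraries with the most extreme Tnf (-0.84) and without the libraries rich in follicle markers (-0.41). It changed sign for Birc3 within genotypes (-0.12), for Tnfsf10 without the extreme libraries (-0.60) and without the follicle-rich ones (-0.25), and for Tnfsf13b without the extreme libraries (-0.22). With each library left out in turn, r ran from -0.41 to 0.53 for Lta, from -0.25 to 0.10 for Tnfrsf1a and from -0.22 to 0.89 for Tnfsf10. The share of genes related to Tnf at an unadjusted p below 0.05 was 6.03%, between 4.16% and 8.13% with each library left out, and 2.86% within genotypes. In the other 124 settings the relations of the members kept their sign. With 8 libraries and 19126 genes, no relation with Tnf can be told apart from the background after adjustment, and counting error limits Lta. The exact test has too few pairings for any gene to pass that adjustment on its own.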
